A study of Mus musculus with 2 samples.

Results

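The 9 genes described here encode the MHC class II presentation machinery of the mouse and its transcriptional control: the transactivator Ciita, the promoter-binding factor Rfx5, the classical chains H2-Aa, H2-Ab1 and H2-Eb1, the invariant chain Cd74, and the peptide editors H2-DMa, H2-Oa and H2-Ob. They were selected by name from 18193 genes that have a probe set of their own on the Mouse Genome 430 2.0 array, and all 17 probe sets that the platform annotation gives to exactly 1 of them were used. A further probe set is shared by H2-Ob and Gm20506 and was left out. The samples were macrophages grown from C57BL6 bone marrow in serum-containing RPMI with M-CSF, the growth factor that drives macrophage differentiation. The control culture received no LPS and the other was treated with LPS, the bacterial outer-membrane component sensed by Toll-like receptor 4. Each condition has 1 array, so the differences below have no replicate check, cannot be tested and describe these 2 arrays alone. That number sets the precision of all values. The labels give neither the dose and time of LPS nor how many mice stood behind each culture. The comparison asks how LPS-treated and untreated macrophages differ in these transcripts.

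MHC class II molecules are pairs of an alpha and a beta chain that display peptides from engulfed material to CD4+ T cells. In the endoplasmic reticulum the pair binds the invariant chain, which blocks the groove and directs the complex to endosomes. Proteases there cut the invariant chain down to a fragment, which H2-DM exchanges for peptide, while H2-O restrains H2-DM. Transcription of class II genes depends on a shared promoter module. Its X box is bound by the RFX complex and CREB, and its Y box, an inverted CCAAT, is bound by NF-Y. CIITA binds no DNA itself but docks on this assembly, and in macrophages interferon gamma is its classical inducer.

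The promoter module can be seen in some of the sequences. They are shown because class II genes answer to Ciita through such a module. RefSeq promoter windows of assembly GRCm38.p6, running from 250 bases before to 50 after a gene's start, were at hand for 6 of the 9 genes. In 4 of them, on the gene's own strand, the X box core GCAAC was followed 25 to 28 bases later by ATTGG, the Y box letters. Both strands were searched, with a gap of 15 to 30 bases allowed, and the letters and gap were chosen after these windows had been read. The letters of both cores are in capitals below.
H2-Aa: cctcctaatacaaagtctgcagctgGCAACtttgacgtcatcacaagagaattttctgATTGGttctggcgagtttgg
H2-Eb1: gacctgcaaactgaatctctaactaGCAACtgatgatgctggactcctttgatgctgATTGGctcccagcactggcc
H2-Oa: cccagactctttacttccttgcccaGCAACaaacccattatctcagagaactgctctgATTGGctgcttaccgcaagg
H2-Ob: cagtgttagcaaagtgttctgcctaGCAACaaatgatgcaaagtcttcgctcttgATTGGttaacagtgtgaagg

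The H2-Aa stretch lies at chr17:34287852-34287929 on the minus strand. The H2-Eb1 stretch is chr17:34305751-34305827, that of H2-Oa chr17:34092278-34092355 and that of H2-Ob chr17:34238793-34238867, all on the plus strand. The X core began 81 bases before the start of H2-Aa, 91 before H2-Eb1, 76 before H2-Oa and 87 before H2-Ob. Of all 32851 windows, 35.2% held GCAAC on either strand, 37.4% held ATTGG, and 0.834% held the pair at this spacing. The window of Rfx5 held both cores but not at this spacing, and neither of the 2 windows of H2-DMa held both. A match describes letters only, and no binding was measured in these samples.

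As deposited, the 6 class II genes measured on both arrays differed little between them by their brightest probe sets. The signals are linear MAS5 values, 1 per probe set and array. Each array's own median over probe sets other than array controls, 35.1 for the control and 26.7 for LPS, was taken as its floor, a gene was called measured if its brightest probe set was not under the floor on at least 1 array, and log2 ratios are LPS over control with signals under the floor raised to it. All 9 genes were measured, 6 of them on both arrays, Ciita and H2-Ob on the control array alone and H2-Oa on the LPS array alone. Those 6, Rfx5, H2-Aa, H2-Ab1, H2-Eb1, Cd74 and H2-DMa, had log2 ratios from -0.38 to 0.17 and lay within 1.5-fold, against 43.5% of the 9822 genes measured on both. Among all 9, 0 were higher by 2-fold or more and 1, Ciita, was lower by that size. Of the 11722 measured genes on the array, 8.22% were higher and 26.2% lower by the same rule.

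The arrays as a whole were offset, which bears on each small ratio here. The median log2 ratio was -0.42 over all measured genes and -0.13 over the 9 class II genes, 7 of which lay above the median of all genes. The 18 probe sets for RNAs spiked in at hybridization had a median of -0.05, and the 24 for poly-A RNAs, which the standard protocol spikes in before labelling, had -0.29. After the ratios were centred on the median of all measured genes, 0 class II genes were past 2-fold in either direction, and 13.1% of all measured genes were then higher and 15.3% lower. After centring, 6 of the 9 lay within 1.5-fold, against 51.2% of all measured genes. As deposited these were 8 of 9, with H2-Oa and H2-Ob counted at their bounds, and 45.0%.

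**Figure D1:**
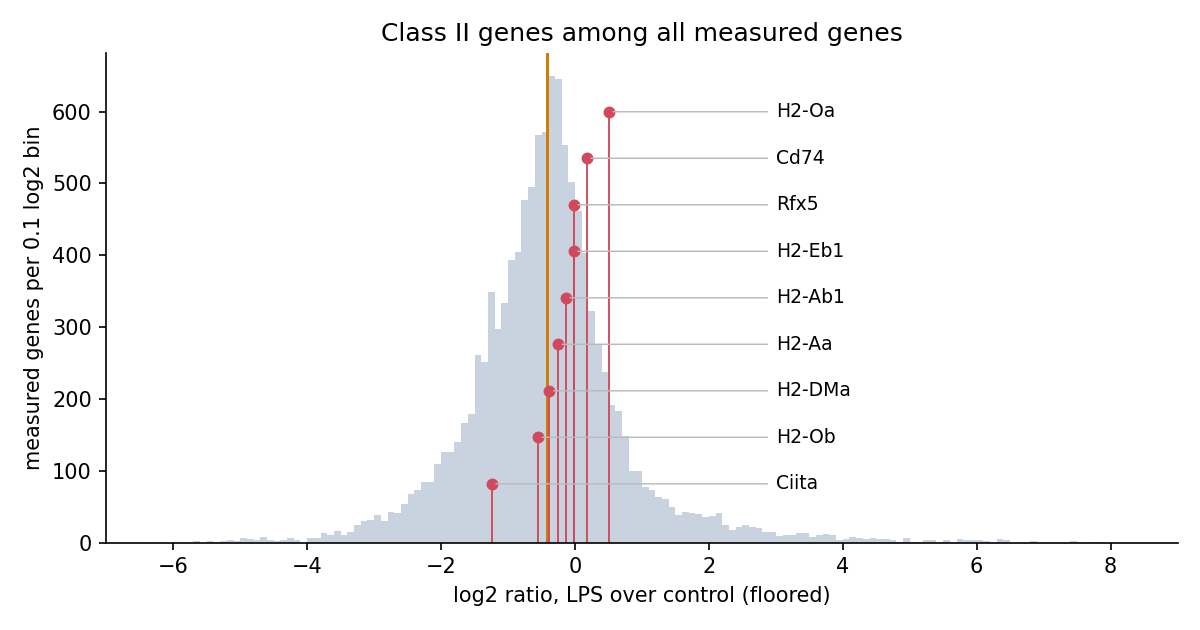
Histogram of the log2 ratio (LPS over control, signals floored) of the 11722 measured genes in bins of 0.1, with the 9 class II genes marked by red stems of arbitrary height and the median of all measured genes (-0.42) as an orange line. Ciita at -1.24 is the only class II gene beyond 2-fold, and 7 of the 9 stand to the right of the orange line.

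Ciita, the coactivator on which class II transcription depends, read 63.1 without LPS and 23.2 with LPS by its brightest probe set. The latter was under the floor, so Ciita was at least 2.37-fold lower after LPS. Its other probe sets read 23.4 and 13.6, and 12.7 and 5.24, on the control and LPS arrays. Both lay under the floor on both arrays, so no fold is given for them, although all 3 probe sets had the lower signal on the LPS array. Among the 3417 measured genes of like brightness, with a mean log2 signal of 5 to 7, 34.5% were lower by 2-fold or more. The log2 ratio of -1.24 became -0.82 after median centring, -0.78 under quantile normalization, -0.78 under loess and -0.95 when scaled to the poly-A spikes, so the call of 2-fold depends on the scaling, whereas the direction held under each.

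Rfx5, the DNA-binding subunit of the RFX complex, had signals of 250.3 without LPS and 247.9 with LPS, a log2 ratio of -0.01 that was 0.41 with centring, 0.47 with quantile normalization and 0.64 with loess. The genes for the other RFX subunits had lower ratios than Rfx5 under each of these scalings. Rfxap, which encodes the RFX-associated protein, had signals of 330.1 and 112.8, a 2.93-fold lower value on the LPS array, and its other probe set was also lower, at 93.8 and 39.7. Rfxank, which encodes the ankyrin-repeat subunit, had signals of 107.2 and 51.5, a 2.08-fold lower value, and all 3 of its probe sets were lower. After median centring Rfxap remained past 2-fold at -1.13, though under loess it was at -0.83. Rfxank was at -0.63 after centring by its brightest probe set. Another Rfxank probe set above both floors had 118.5 and 32.9, a log2 ratio of -1.85 as deposited. Of the 6 measured genes for the partners of Rfx5 on the promoter, 2 were lower and 0 higher, with a median of -0.50, and after centring 1 was lower. These stand beside 26.2% lower and a median of -0.42 over all measured genes, so the share of the list is near that of the array. The NF-Y subunit gene Nfyb stood against that median with signals of 200.8 and 287.3, a log2 ratio of 0.52. Creb1, for the factor that binds beside RFX, was at -0.62 by its brightest probe set, but its 6 probe sets ranged from -0.63 to 0.57.

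Of the classical chains, H2-Aa and H2-Eb1 had nearly equal signals on both arrays, and H2-Ab1 differed between its probe sets. H2-Aa, the alpha chain of I-A, had 1775 without LPS and 1486 with LPS by its brightest probe set, a log2 ratio of -0.26. Its other probe sets were closer still, at 1246 and 1233, 601.4 and 628.1, and 91.8 and 98.1. All 4 thus lay between -0.26 and 0.10, with an SD of 0.16 across probe sets. For comparison, the median SD was 0.28 over 4494 genes with several probe sets measured on both arrays, a technical gauge that says nothing of replicate cultures.

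H2-Ab1, the beta chain of I-A, is the gene whose probe sets disagreed most among those measured on both arrays. The brightest had 759.9 without LPS and 692.4 with LPS, a log2 ratio of -0.13. The other 2 were higher on the LPS array. The next in brightness went from 402.4 to 580.4, a log2 ratio of 0.53, and the dimmest from 161.8 to 275.5, a ratio of 0.77. The SD of the 3 ratios was 0.47, a spread exceeded by 26.3% of the genes with several probe sets measured on both arrays. As deposited, no probe set of H2-Ab1 reached 2-fold, and the direction of the gene depends on which is read. Median centring, which adds 0.42 to each log2 ratio, puts the dimmest past 2-fold on the higher side. H2-Eb1, the beta chain of I-E, has 1 probe set, with signals of 663.0 and 654.6 and a log2 ratio of -0.02.

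H2-Ea, which encodes the partner alpha chain of I-E, was under the floor on both arrays with all 3 of its probe sets, the highest signal being 12.6. Mice of the C57BL strains are known to carry a deletion that silences H2-Ea. The classical chains belong to a multigene family, and all 4 probe sets of H2-Aa and 2 of the 3 of H2-Ab1 are of the kinds, marked _x_at or _s_at, that can share probes with other transcripts, so their signals may not come from a single gene.

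Cd74, the invariant chain, had 1536 without LPS and 1733 with LPS by its single probe set. Its log2 ratio of 0.17, or 1.13-fold higher, kept its sign under every scaling, from 0.09 with quantile normalization to 0.60 with median centring. Centring and both spike scalings add a positive amount to each ratio, so they could turn only negative ratios. For Cd74 only quantile normalization and loess could have changed the sign. The ratios of the classical chains' brightest probe sets did not keep their sign: H2-Ab1 and H2-Eb1 turned positive with quantile normalization, with centring, with loess and with the poly-A spikes as reference, H2-Eb1 also with the hybridization spikes, and H2-Aa with centring and with the poly-A spikes.

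**Figure D2:**
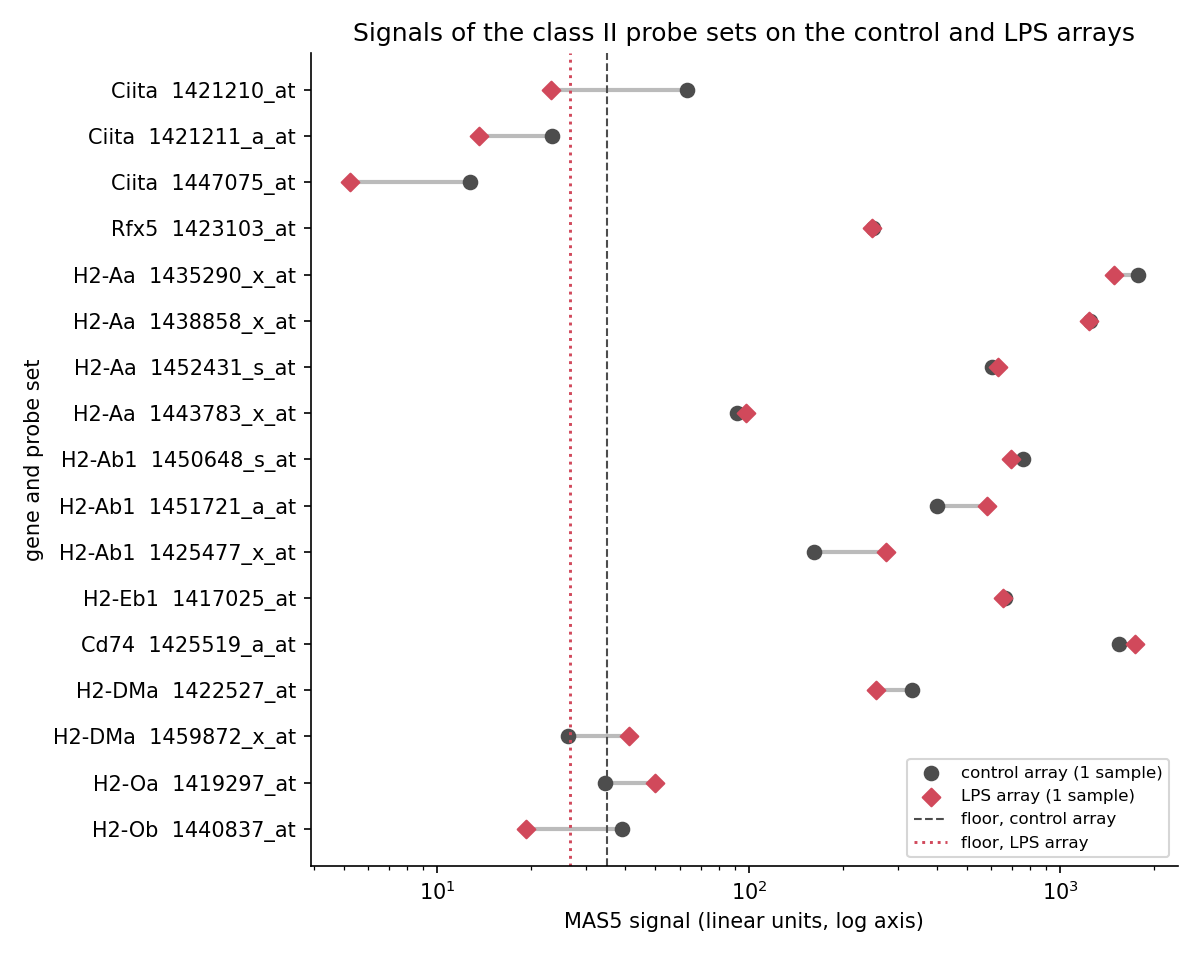
MAS5 signals on a log axis of the 17 class II probe sets on the control array (grey circles) and the LPS array (red diamonds), 1 sample each, with the floor of each array as a vertical line. The points of H2-Aa, H2-Eb1, Cd74 and Rfx5 nearly coincide between arrays, those of Ciita are all lower on the LPS array, and those of H2-Oa and H2-Ob straddle the floors.

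Among the peptide editors, only H2-DMa was above the floor on both arrays. H2-DMa, the alpha chain of the H2-DM exchange factor, had signals of 333.3 and 256.0 by its brightest probe set, a log2 ratio of -0.38 that was above 0 with loess, with quantile normalization and with centring. Its dimmer probe set was at 26.3, under the floor, and 41.1, the opposite direction. H2-DMb2, for a partner beta chain, was as divided: its brightest probe set had 69.5 and 49.3, and another had 36.6 and 87.6.

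H2-Oa and H2-Ob, the alpha and beta chains of H2-O, sat at the limit of measurement. H2-Oa read 34.6 without LPS, just under the floor, and 49.8 with it, a value at least 1.42-fold higher. H2-Ob read 39.1 without LPS and 19.2, under the floor, with it, at least 1.46-fold lower. Although both chains form 1 protein, their ratios point opposite ways, and each gene was measured on only 1 array. H2-O is typical of B cells and of thymic epithelium. Their promoter stretches shown above hold the same pair of cores as those of H2-Aa and H2-Eb1, which were well above both floors.

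**Figure D3:**
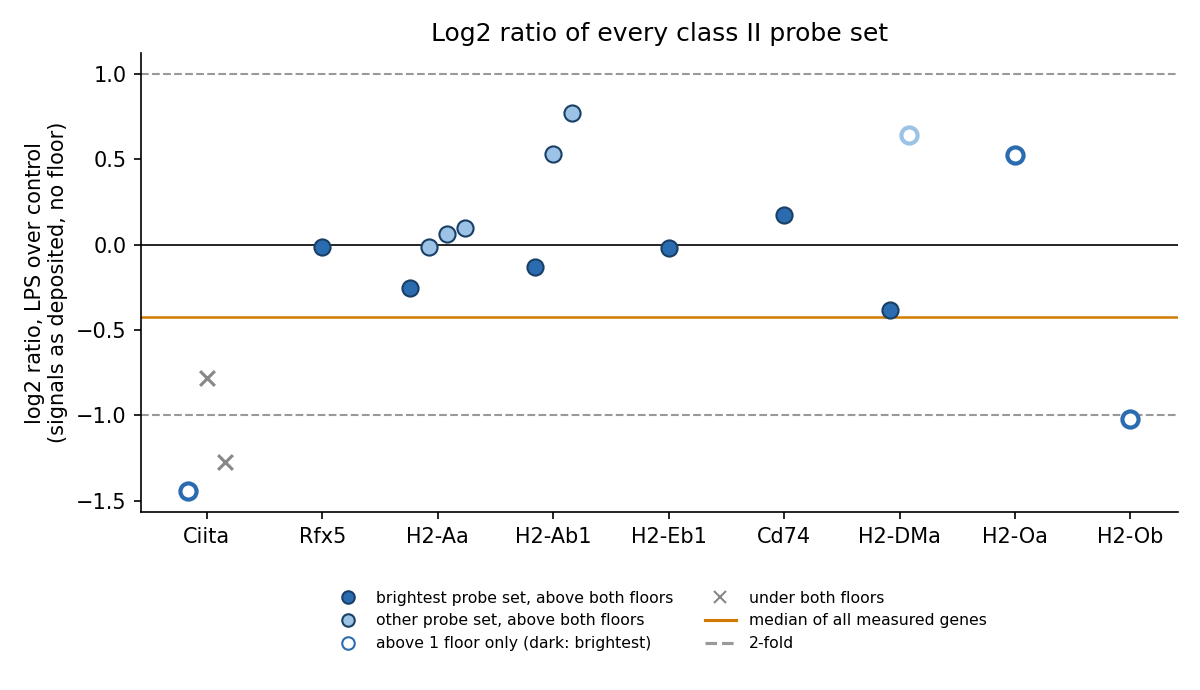
Log2 ratio (LPS over control, signals as deposited with no floor) of each of the 17 probe sets, grouped by gene; filled circles were above both floors, open circles above 1, and crosses above neither, with the median of all measured genes in orange and 2-fold as dashed lines. All 11 filled circles lie between -0.38 and 0.77, and the 3 probe sets of Ciita and the 1 of H2-Ob lie lowest.

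Genes upstream of Ciita included large differences between the arrays. Of 9 measured genes of the interferon gamma pathway and factors acting on Ciita's promoters, 4 were at least 2-fold higher and 1 lower. Their median was 0.92, and 7 were higher after median centring. The shares over all measured genes were 8.22% higher and 26.2% lower, and 13.1% higher after centring. Jak2, a kinase of the interferon gamma receptor, had signals of 341.3 and 4638, 13.6-fold higher on the LPS array. Irf1, a transcription factor that acts at the interferon-responsive Ciita promoter, had 772.0 and 2949, 3.82-fold higher. The myeloid factor genes Spi1 and Irf8 were 2.26-fold and 2.10-fold higher, the brightest probe set of Irf8 only 0.94 on the log2 scale under quantile normalization. The other Irf8 probe set had 618.2 and 2260, a log2 ratio of 1.87 as deposited. Ifngr1, the ligand-binding chain of the receptor, was the exception, with 1810 and 541.1, 3.34-fold lower. Ifng itself was under the floor on both arrays, at 0.70 and 1.09.

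Genes that restrain this pathway were among the large differences. Of 5 measured, 3 were higher and 0 lower (median 3.82), against 8.22% higher and 26.2% lower over all measured genes. Socs3, an inhibitor of cytokine receptor signalling, had signals of 109.6 and 9783, 89.3-fold higher. Socs1, which blocks JAK kinases downstream of the interferon gamma receptor, had 5.33, under the floor, and 759.9, at least 21.7-fold higher. Il10, a cytokine that lowers class II display on macrophages, had 44.3 and 624.3, 14.1-fold higher. Tgfb1, another cytokine known to lower Ciita, was at -0.63.

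Of 8 measured genes for cofactors that CIITA recruits or that repress it, 2 were higher and 1 lower (median 0.22). The shares over all measured genes were 8.22% higher and 26.2% lower. Hdac1, a histone deacetylase, had signals of 1044 and 3056, 2.93-fold higher. Kat2b, the acetyltransferase PCAF, was 2.39-fold higher by its brightest probe set, although 1 of its 3 probe sets, under both floors, had the lower signal on the LPS array. Sin3a, a corepressor scaffold, was 2.52-fold lower as deposited and at -0.91 after median centring. Crebbp, an acetyltransferase coactivator, was at -0.87.

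**Figure D4:**
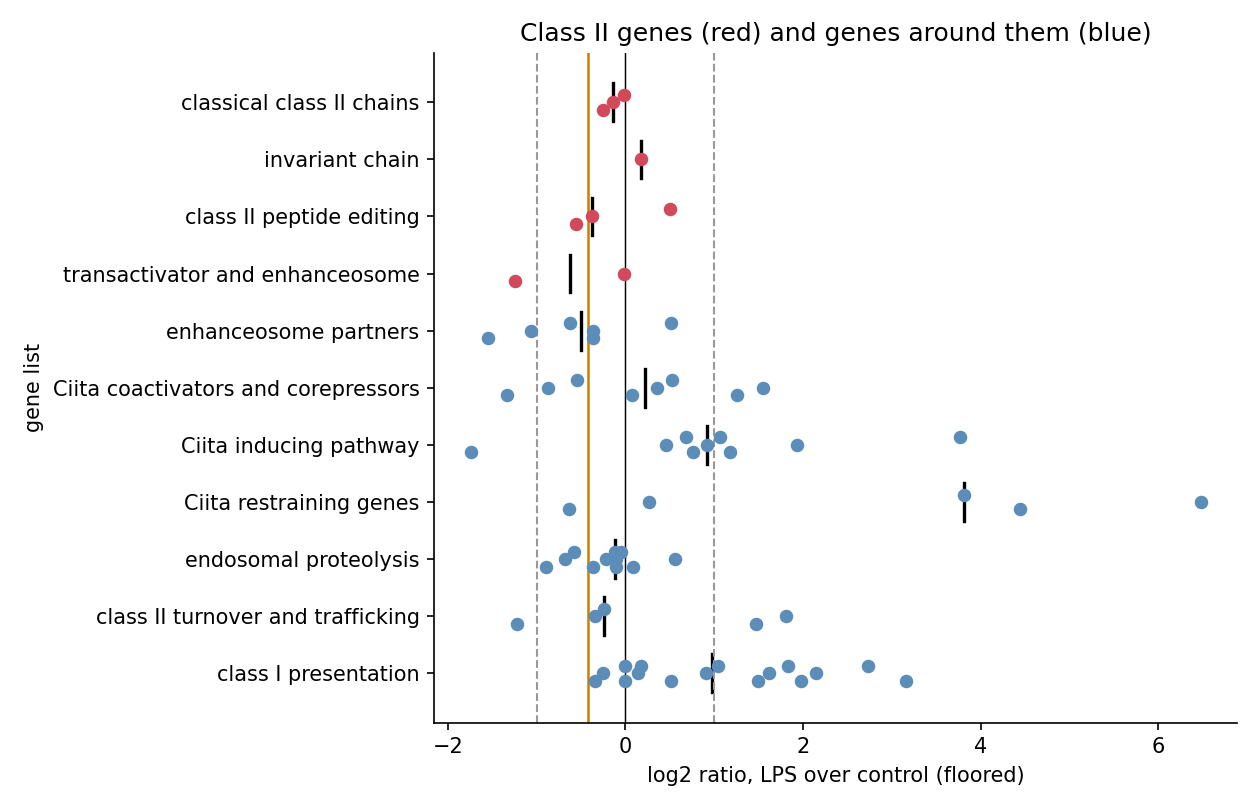
Log2 ratios (LPS over control, floored) of the measured genes of each list, class II genes in red and genes of related function in blue; each point is a gene, black bars are list medians, the orange line is the median of all measured genes and dashed lines mark 2-fold. The classical chains and the invariant chain lie close to 0, while lists of Ciita inducers and restrainers and of class I presentation reach past 3 on the log2 scale.

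Downstream of transcription, the genes of endosomal proteolysis also lay within 2-fold by their brightest probe sets. Of 11 measured genes for endosomal proteolysis, 0 were past 2-fold in either direction by the brightest probe set, and the median was -0.11. Over all measured genes 8.22% were higher and 26.2% lower. Most genes of the list were bright. Among the 786 measured genes with a mean log2 signal of 11 to 14, only 12.8% were higher and 4.96% lower. The largest in size were Ifi30, the thiol reductase that opens disulfide bonds of antigens, at -0.90, Ctsh at -0.68, the asparaginyl endopeptidase gene Lgmn at -0.58 and the intramembrane protease gene Sppl2a, which clears the invariant chain's remnant, at 0.55. Ctss, the main protease of the invariant chain in macrophages and dendritic cells, had signals of 10404 and 9647. Some dimmer probe sets above both floors were past 2-fold: 1 of Ctsb (244.9 and 103.9), 1 of Ctsh (1505 and 707.9) and 1 of Ctsl (102.1 and 50.9) were lower with LPS, and 1 of Sppl2a (776.2 and 1566) was higher.

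Regulators of class II at the cell surface stood on both sides. Of 5 measured genes of class II turnover and trafficking, 2 were higher and 1 lower, beside 8.22% and 26.2% of all measured genes. Marchf1, for the ligase that ubiquitinates class II and sends it for degradation, had signals of 586.7 and 1624, 2.77-fold higher, and a second probe set measured on both arrays had 361.2 and 729.5. Cd83, whose product opposes MARCH1, had 1038 and 3644, 3.51-fold higher. Marchf8, for a related ligase, had 1358 and 584.4, 2.32-fold lower, but -0.79 after median centring. Lamp1, a lysosomal membrane protein gene, was at -0.35, which turns positive under median centring.

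The class I pathway, which displays peptides made in the cytosol, was read on the same arrays. Of 16 measured class I presentation genes, 8 were past 2-fold on the higher side and 0 on the lower. Their median was 0.98, and 9 were higher after median centring. Among all measured genes 8.22% were higher and 26.2% lower as deposited, and 13.1% were higher after centring. Nlrc5, which does for class I what Ciita does for class II and belongs to the same protein family, had signals of 355.3 and 3176, 8.94-fold higher. As deposited and with the floor used here, Ciita was at least 2.37-fold lower. After median centring Nlrc5 was at 3.58 and Ciita at -0.82, which is within 2-fold. The peptide transporter genes Tap1 and Tap2 were 6.64-fold and 4.44-fold higher and the immunoproteasome gene Psmb10 3.93-fold higher. By their brightest probe sets the heavy chain genes H2-K1 and H2-D1 were at -0.01 and -0.01, with signs that depend on the scaling. With no floor, the 4 probe sets of H2-K1 ranged from -0.01 to 0.40 and the 9 of H2-D1 from -0.50 to 1.03. Most of these are of the _x_at kind, and some of H2-D1 were under a floor. B2m was at 0.14, and the chaperone gene Canx at -0.34, positive after median centring. The difference between the class I and class II lists could not be tested with 1 array per condition.

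The labelled cell type could be checked against its markers. All 8 macrophage markers were above the floor on both arrays, and their summed signal was 43552 without LPS and 50779 with LPS. The higher sum came from Fcgr1 (1519 and 6107) and Cd14 (3965 and 10273), which were past 2-fold on the higher side. Of the others, Csf1r, Cd68, Itgam and Mertk had log2 ratios of -0.33, -0.38, -0.27 and -0.74 as deposited. Adgre1 and Lyz2 were at 0.07 and 0.12. Other cells that carry class II were looked for, since in bulk RNA fewer cells of a type and less RNA per cell cannot be told apart. Of 9 B cell markers with their own probe set, 4 were measured and 2 were lower on the LPS array: Cd79b, a chain of the B cell receptor, had 110.0 and 35.3, and Cd22 had 85.2 and 37.3. The other 2 measured did not share this: Blk had 53.1 and 47.6, and Fcer2a had 7.96, under the floor, and 27.8. Cd79a and Ms4a1 were under the floor on both arrays, and the summed signal of the 9 was 347.3 and 216.8. Of 6 dendritic cell markers, 2 were measured, on opposite sides: Cd209a had 47.6 and 11.8, under the floor, and Zbtb46 had 18.5, under the floor, and 50.1. Flt3 and Xcr1 were under both floors, and the sum of the 6 was 131.7 on each array. Of 5 T cell markers only Cd8a was measured, and the sum was 116.5 and 95.4. Cd79b, Cd22 and Cd209a thus had lower signals with LPS, as did Ciita and H2-Ob, whereas Blk differed little and Fcer2a and Zbtb46 had higher signals. All these markers were dim, and 26.2% of all measured genes were lower by 2-fold or more. Whether other cells had a part in the values of Ciita and H2-Ob was not tested.

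**Figure D5:**
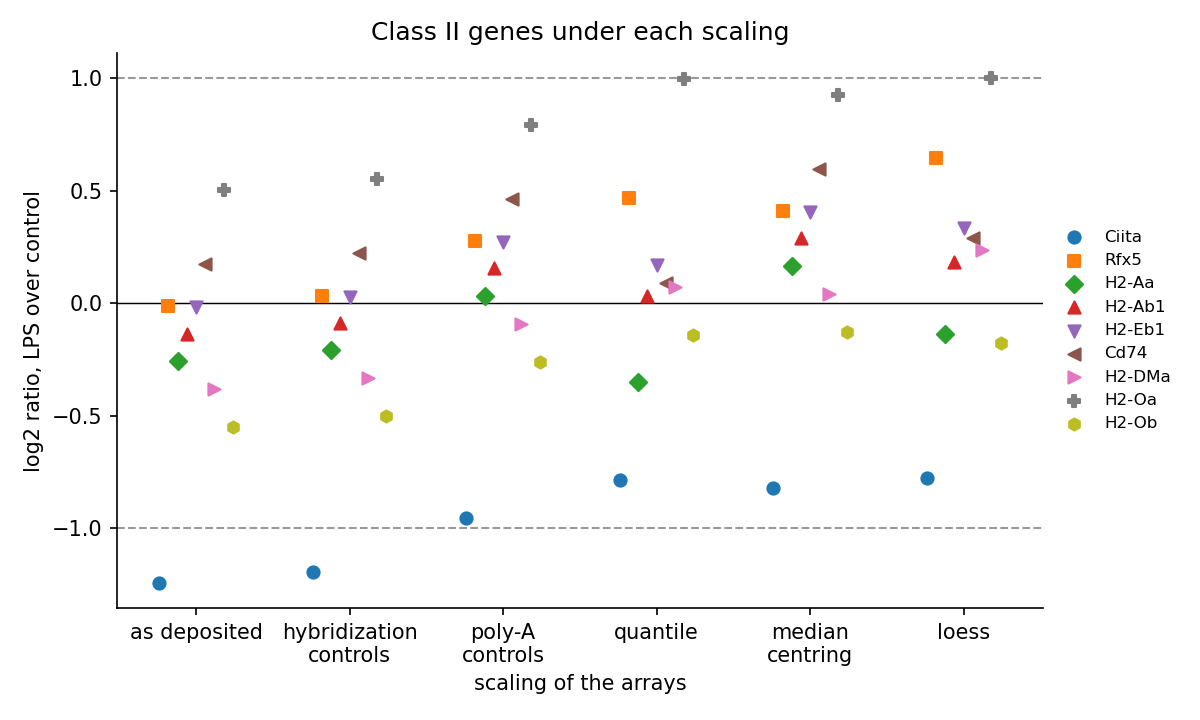
Log2 ratio (LPS over control) of the 9 class II genes as deposited and under 5 scalings of the arrays, 1 point per gene and scaling, with 2-fold as dashed lines. Ciita is the lowest gene under each scaling and lies beyond 2-fold as deposited and with hybridization controls. H2-Oa is the highest and stays just under 2-fold, at 0.996 with quantile normalization and 0.99995 with loess.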

How the data were processed

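Total RNA of 1 control and 1 LPS culture was labelled with biotin and hybridized to Affymetrix Mouse Genome 430 2.0 arrays. The authors deposited 1 linear intensity per probe set for each array, computed by MAS5 according to the submitters' processing notes. The sources used here give no version, target for scaling, or detection call. Of 45101 probe sets, 64 array controls were set aside. Genes were named from the platform annotation, using probe sets with exactly 1 gene. The brightest probe set (highest mean log2 signal) stood for a gene, a signal under the array's floor (50th percentile) was raised to it, and genes were counted at 2-fold without a test. No value column was left unused.

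The 9 genes, the lists around them, the thresholds and the alternatives were chosen with earlier results of these data known. Named genes were all 9, up to 4 genes per list with the largest ratio in size, the 1 furthest against the list's median, and H2-K1, H2-D1, B2m and Nlrc5; markers and other genes named beside them, such as Irf8, Ctss, Cd22 and H2-DMb2, were chosen after their values were seen. Alternatives were other floors, a pseudocount of 16, 5 scalings, other rules for probe sets and thresholds of 3-fold and 1.5-fold. The steps were tested on simulated data. Python 3.11.15 with pandas 2.3.3 and statsmodels 0.14.6 (loess, span 0.4) was used.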

Additional observations from a re-analysis of the deposited data

How the results depend on the processing

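The count of class II genes at least 2-fold higher was 0 under all 10 alternatives and at thresholds of 3-fold and 1.5-fold. H2-Oa fell only just short of 2-fold, with a log2 ratio of 0.996 under quantile normalization and 0.99995 under loess. The count at least 2-fold lower, 1 as deposited (Ciita), was 2 when the floor was lowered to the 35th percentile, where H2-Ob joined at -1.02. It was 0 when the floor was raised to the 65th percentile, where Ciita, H2-Oa and H2-Ob are no longer measured, and 0 with quantile normalization, median centring, loess, poly-A control scaling and a threshold of 3-fold. The median log2 ratio of the 9 genes, -0.13, was 0.29 with median centring, 0.24 with loess and 0.15 with scaling to the poly-A controls. Centring and scaling to controls shift all genes by the same amount (0.42 for centring), whereas loess and quantile normalization shift them unequally. Of 84 single-gene values under the alternatives, 50 moved by less than the median SD between probe sets of a gene (0.28) and 34 moved by more. The 50 include values that could not move. Another floor leaves genes well above it unchanged, and other rules for probe sets leave genes with 1 probe set unchanged. The tally is therefore no measure of stability. Ciita and H2-Ob stayed below 0 and Cd74 and H2-Oa above 0 in each of the 9 alternatives that gave them a value. For Cd74 and H2-Oa this was partly fixed in advance, since centring and scaling to controls add a positive amount to each ratio. The sign turned positive in 3 of 9 for H2-Aa, 5 of 9 for H2-Ab1, 3 of 10 for H2-DMa, 5 of 10 for H2-Eb1 and 5 of 10 for Rfx5. Plain probe sets alone left 6 genes. Signals near the floor limit Ciita, H2-Oa and H2-Ob. No paired analysis was possible because each group has 1 sample.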

Other observations

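The pair of X and Y box letters found before H2-Aa, H2-Eb1, H2-Oa and H2-Ob also stood before H2-Eb2, a beta chain gene of the same region. It stood before 0 of the 14 class I presentation genes with a promoter window, and 0.834% of all windows held it. The letters and gap were chosen after class II windows had been read, so these counts cannot show whether class I promoters hold such a module. Over the array, 98 measured genes had a window with the pair at this spacing. Of these, 8.16% were past 2-fold on the higher side and 30.6% on the lower, close to the 8.22% and 26.2% of all measured genes, and their median log2 ratio was -0.57, against -0.43 for the 9520 measured genes with any window. H2-Eb2 had signals of 23.8, under the floor, and 42.7. The probe set shared by H2-Ob and Gm20506 had 33.5, under the floor, and 28.0, just above the floor of the LPS array.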
